A study of Mus musculus with 20 samples.

Results

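The 10 genes described here belong to the growth hormone and insulin-like growth factor (IGF) axis. They were taken by gene name from the table of 38924 genes deposited for 20 mouse livers, and every name matched 1 row. They are the ligand gene Igf1, its serum partner Igfals, the receptor genes Ghr and Igf1r, the feedback inhibitor Socs2, and 5 IGF binding protein genes, Igfbp2, Igfbp3, Igfbp4, Igfbp5 and Igfbp7.

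The study asked how loss of thrombospondin-1 (TSP-1), a secreted matrix protein that can activate latent TGF-β, alters a diet model of steatohepatitis. All mice were male, were bought at 5 weeks of age and were acclimated for 1 week, and liver RNA was taken after 12 weeks of feeding. NDWT mice were C57/BL6 wild type (WT) animals on control chow, and HFWT mice were wild type on CDAHFD. That is a high fat chow without choline, limited in methionine and with free amino acids in place of protein. NDKO and HFKO mice carried a TSP-1 knockout (a Jackson Laboratory stock line, strain background C57/BL6) and ate control chow and CDAHFD, respectively. The knockout is present in every tissue. The wild type mice were bought as C57BL/6J and are not described as littermates of the knockouts, so the allele and the history of the line cannot be told apart. There were 5 mice in each group, each sequenced as 1 poly(A) library. The series text and the study's methods name different right lobes as the tissue taken for RNA.

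Growth hormone is released by the pituitary and binds its receptor, Ghr, on hepatocytes. The receptor signals through the kinase JAK2 and the transcription factor STAT5, which drives Igf1, Igfals and, as a brake, Socs2 and Cish. The liver is the main source of circulating IGF-1, which travels in the blood in a complex with a binding protein, mostly IGFBP-3 or IGFBP-5, and the acid-labile subunit encoded by Igfals. Adult hepatocytes make the hormone and hardly any of its receptor, Igf1r. Igfbp2 and Igfbp1 are liver products that rise in fasting, Igfbp4 encodes a binder that mostly inhibits IGF action, and Igfbp7 encodes a related secreted protein with low affinity for IGFs that is made by endothelium and activated mesenchymal cells. In rodents the sex-specific rhythm of growth hormone release also sets a large group of male-biased and female-biased liver genes.

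Expression is given as FPKM, the fragments assigned to a gene scaled by its length and by the library's total, so that levels of different genes can be set side by side. Differences are log2 fold changes (log2FC) of log2(FPKM + 0.1), fitted by limma over all 20 libraries, with Benjamini-Hochberg false discovery rates (FDR) over the 14524 genes tested. A gene is called higher or lower where the FDR was under 0.05 and the log2FC was beyond 0.58, a 1.5-fold change. All 10 genes passed the filter of 0.5 FPKM in at least 5 libraries, with Igf1r above it in 11 libraries and the others in 20. Gene positions are those of the deposited table, on GRCm38.

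The promoters of the genes are shown first because STAT5, the factor below the growth hormone receptor, binds the palindrome TTCNNNGAA. RefSeq gave 13 windows on GRCm38.p6 for 9 of the 10 genes. Socs2 had no entry. Each window ran from 250 bases before to 50 bases after an annotated start. Some starts lie inside the gene. All 250 bases before the start lay in exons for the Igf1 window and the last Igfals window. In the first Igfals window 188 did, and in 1 Ghr window 140 did. For Igf1 the search therefore covered exon sequence and not sequence upstream of the gene. The STAT5 palindrome, searched on both strands, lay in windows of Igfals and in no other member's window. It was present in 8.29% of the 32817 windows of the genome and 9.55% of the 26994 genes. Igfals held it in both of the first 2 of its 3 windows, as TTCTCAGAA with its first base at −236 from the start site and as TTCCTAGAA at −58. The forkhead motif TGTTTAC lay at −242 in an Igfals window and in 3.65% of all windows, and the TATA box TATAAA lay at −28 in Igfbp4, at −188 on the reverse strand in Ghr and in 13.6% of all windows. A match is a description of letters and not a bound site. The stretches printed here, 5′ to 3′ on the gene's strand, are the sequence just before the start site, except that for Igfals the last 16 bases before the start, which lie in an exon, were left out. They cover Igfals at chr17:24878111-24878214 (plus strand), Igfbp2 at chr1:72824360-72824479 (plus), Igfbp4 at chr11:99041124-99041243 (plus) and Igfbp7 at chr5:77408046-77408165 (minus). Igfals carries the motif, and the 3 binding proteins made up most of the IGFBP message. Capitals mark the STAT5 palindrome in Igfals and the TATA box in Igfbp4, and none of the stretches lies in a GENCODE M21 exon.
Igfals: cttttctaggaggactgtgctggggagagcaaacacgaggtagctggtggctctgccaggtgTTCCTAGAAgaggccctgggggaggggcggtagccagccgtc
Igfbp2: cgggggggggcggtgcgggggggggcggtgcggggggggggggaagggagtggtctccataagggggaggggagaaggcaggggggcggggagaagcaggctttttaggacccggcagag
Igfbp4: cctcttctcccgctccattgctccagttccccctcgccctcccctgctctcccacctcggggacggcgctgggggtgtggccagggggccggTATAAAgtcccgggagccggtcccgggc
Igfbp7: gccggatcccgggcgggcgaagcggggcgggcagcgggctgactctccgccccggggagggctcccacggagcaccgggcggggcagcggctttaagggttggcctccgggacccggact
The Igfbp2, Igfbp4 and Igfbp7 stretches were 75.0%, 72.5% and 78.3% G and C with 7, 9 and 15 CG pairs, against 62.5% and 3 CG pairs for Igfals. In the data, Igfals was lower on CDAHFD and Igfbp7 higher, while Igfbp2 differed by diet and by genotype label and Igfbp4 stayed within 1.5-fold in every comparison when libraries were not rescaled.

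Total assigned fragments per library ran from 15641545 to 23276322. Thbs1, the gene targeted in the knockout, did not match the labels. On control chow its mean was 1.30 FPKM in NDKO against 0.197 in NDWT (log2FC 2.28, SE 0.24, FDR 1.02e-05), with no overlap between the groups, and on CDAHFD it was 3.44 in HFKO against 4.62 in HFWT (log2FC −0.39, SE 0.24, FDR 0.408). The table gives 1 value per gene over all its exons, and the part removed by the allele is not given in the sources used here. Genotype groups are therefore named below as the labels give them, and every genotype direction rests on those labels. On CDAHFD the median log2FC of all tested genes was 0.53 in WT and 0.50 in TSP-1 null livers rather than 0, so a value relative to that median is given beside the diet differences of members and of most pathway genes named. Scaling by the median of ratios moved these medians by −0.54 and −0.51.

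**Figure D1:**
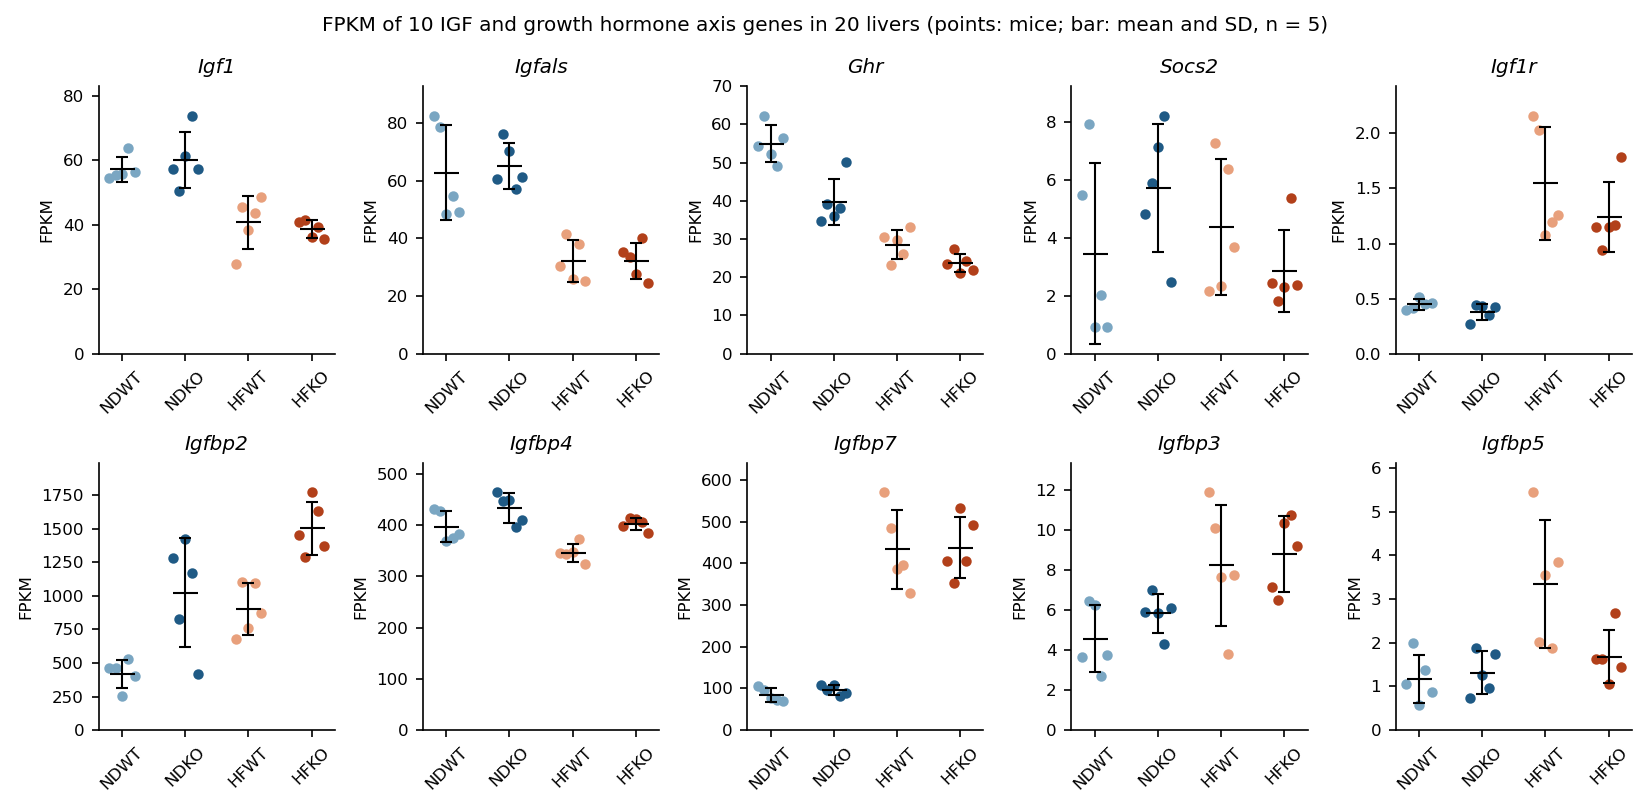
FPKM (linear axis from 0) of the 10 genes in each of 20 livers, by group (NDWT, NDKO, HFWT, HFKO, n = 5 each); points are mice and bars are the mean and SD. Igf1, Igfals and Ghr sit lower and Igfbp7 and Igf1r higher in both CDAHFD groups than in the control chow groups, Igfbp2 is highest in HFKO, and Socs2 spreads widely within each group.

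On control chow the members covered a wide range of levels in NDWT livers. Igfbp2 (421 ± 104 FPKM, SD, n = 5) and Igfbp4 (397 ± 30.5) were the most abundant, and their ranges overlapped. Igfbp7 (84.0 ± 16.6), Igfals (62.8 ± 16.5), Igf1 (57.2 ± 3.81) and Ghr (54.9 ± 4.90) followed, each overlapping with the next, and all lay above Igfbp3 (4.58 ± 1.69) with a gap. Socs2 (3.46 ± 3.12) and Igfbp5 (1.17 ± 0.541) overlapped with each other, and Igf1r (0.446 ± 0.0465) was the lowest member and did not overlap with Igfbp5. In HFWT and HFKO livers Igfbp7 moved ahead of Igfbp4, behind Igfbp2, with overlapping ranges between Igfbp7 and Igfbp4.

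CDAHFD against control chow was the comparison in which most members differed. In WT livers 5 of the 10 were called higher (Igfbp2, Igfbp3, Igfbp5, Igfbp7 and Igf1r) and 2 lower (Igfals and Ghr). Over all tested genes 44.1% were called higher and 4.62% lower, so the share of members higher is near the background and the share lower is above it. In TSP-1 null livers 3 were called higher (Igfbp2, Igfbp7 and Igf1r) and 3 lower (Igf1, Igfals and Ghr), against 41.9% and 4% of all tested genes. Igf1r passed the filter through CDAHFD libraries, so its calls are partly fixed by that filter. Groups did not overlap for 3 members higher and 3 lower in WT livers, where 50.5% and 5.7% of all tested genes were so, and for 2 higher and 3 lower in TSP-1 null livers, where 52.7% and 5.03% were. The median log2FC of the 10 members was 0.74 in WT and 0.12 in TSP-1 null livers, against 0.53 and 0.50 over all tested genes. The diet comparisons use different mice from each other, and the genotype comparisons draw on the same 20 libraries.

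Igf1 (ENSMUSG00000020053.12, chr10:87858265-87937042), which encodes the hormone, was lower in all CDAHFD livers than in all control chow livers. Its levels were 54.6, 55.5, 55.6, 63.9 and 56.4 FPKM in the NDWT livers and 27.7, 45.4, 38.3, 43.7 and 48.7 in the HFWT livers. They were 57.3, 50.6, 61.4, 73.8 and 57.3 in NDKO and 40.8, 41.6, 36.1, 39.4 and 35.7 in HFKO. The 10 CDAHFD livers ran from 27.7 to 48.7 FPKM and the 10 control chow livers from 50.6 to 73.8, with no overlap. The log2FC was −0.51 (SE 0.12, FDR 8.41e-04) in WT, which passed the FDR but stopped short of the 1.5-fold threshold, and −0.62 (SE 0.12, FDR 1.30e-04) in TSP-1 null livers, which was called lower. Relative to the median of all tested genes these were −1.04 and −1.12. The call in TSP-1 null livers was lost without NDKO mouse 4 (log2FC −0.55), and the WT difference was called without HFWT mouse 5 (−0.58) and under the median of ratios (−1.07) and quantile (−0.67) scalings. The table holds an antisense gene, Gm16176, over Igf1, and whether the counting used strand is not given in the sources used here.

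Igfals (ENSMUSG00000046070.8, chr17:24878770-24882008), which encodes the acid-labile subunit, was called lower on CDAHFD in both genotypes, with a ratio of group means of 0.514 in the wild type and 0.494 in the knockout livers. Its levels were 82.5, 78.6, 48.6, 54.8 and 49.2 FPKM in NDWT and 30.5, 41.6, 25.9, 38.0 and 25.2 in HFWT. They were 60.6, 76.1, 70.3, 57.0 and 61.3 in NDKO and 35.3, 33.4, 27.5, 40.1 and 24.4 in HFKO. The diet groups did not overlap in either genotype, and NDWT mice 1 and 2 lay well above the other 3 of their group. The log2FC was −0.95 (SE 0.17, FDR 7.20e-05) and −1.03 (SE 0.17, FDR 3.14e-05), or −1.48 and −1.53 relative to the median of all tested genes.

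Ghr (ENSMUSG00000055737.6, chr15:3317760-3583492), the growth hormone receptor gene, was also called lower on CDAHFD. Levels were 54.4, 62.3, 52.3, 49.2 and 56.5 FPKM in NDWT and 30.6, 23.1, 29.8, 26.1 and 33.1 in HFWT. They were 34.8, 39.3, 35.9, 38.2 and 50.1 in NDKO and 23.4, 27.4, 21.1, 24.4 and 22.0 in HFKO. No HFWT liver reached the lowest NDWT liver and no HFKO liver reached the lowest NDKO liver. The log2FC was −0.95 (SE 0.11, FDR 1.56e-07) in WT and −0.74 (SE 0.11, FDR 4.43e-06) in TSP-1 null livers, or −1.48 and −1.23 relative to the median of all tested genes. On control chow 4 of the 5 NDKO livers lay below every NDWT liver and NDKO mouse 5, at 50.1 FPKM, lay above the lowest of them. The genotype log2FC there was −0.48 (SE 0.11, FDR 0.00609), past the FDR but short of the 1.5-fold threshold, and on CDAHFD it was −0.27 (SE 0.11, FDR 0.209). The interaction of diet and genotype was 0.21 (SE 0.15, FDR 0.549).

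Hepatocyte markers bear on these 3 hepatocyte genes. Of 9 such markers none was called on the WT diet comparison and 2 were called lower in TSP-1 null livers, and the 9 summed to 37548 to 44701 FPKM in NDWT, 28740 to 40761 in HFWT, 41614 to 48642 in NDKO and 36348 to 47938 in HFKO. Over all tested genes 4.62% in WT and 4% in TSP-1 null livers were called lower. Fewer cells of a type and less RNA per cell cannot be told apart in these bulk libraries. The part of hepatocyte share in the lower Igf1, Igfals and Ghr was not tested.

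Igf1r (ENSMUSG00000005533.9, chr7:67952859-68226780), the IGF-1 receptor gene, was higher on CDAHFD from a low base. Its levels were 0.392, 0.414, 0.513, 0.454 and 0.458 FPKM in NDWT and 2.16, 2.03, 1.08, 1.20 and 1.26 in HFWT. They were 0.270, 0.441, 0.429, 0.348 and 0.419 in NDKO and 1.15, 0.940, 1.15, 1.17 and 1.79 in HFKO. Every CDAHFD liver lay above every control chow liver. Of the 11 libraries that carried the gene past the filter 10 were CDAHFD libraries, so its place in the tested set follows from its level there. Its diet calls are therefore partly fixed by the filter, and the fitted values are given with that limit. Igf1r was called higher in both genotypes, with a log2FC of 1.54 (SE 0.19, FDR 7.02e-07) and 1.46 (SE 0.19, FDR 1.52e-06), or 1.01 and 0.96 relative to the median of all tested genes. Under quantile scaling it fell short of the 1.5-fold threshold (0.54 and 0.57). Markers of cells other than hepatocytes moved with diet too. In WT and TSP-1 null livers 5 and 5 of 9 tested macrophage markers were called higher and 2 and 2 lower, and the counts called higher among those tested were 6 and 6 of 6 for cholangiocytes, 2 and 2 of 2 for smooth muscle, 2 and 0 of 2 for mesothelium, 7 and 7 of 8 for lymphocytes and 4 and 4 of 4 for neutrophils, with Ly6g at 0 in every NDWT and HFWT library. Over all tested genes 44.1% in WT and 41.9% in TSP-1 null livers were called higher. Some markers, in the cholangiocyte and lymphocyte lists, were above 0.5 FPKM only in CDAHFD libraries. They entered the tested set through those libraries, so these counts are partly fixed by the filter. The macrophage markers summed to 195 to 259 FPKM in NDWT and 1024 to 1389 in HFWT, and the cholangiocyte markers to 20.6 to 24.4 and 302 to 500.4. The part of these cell types in the higher Igf1r, Igfbp2, Igfbp3 and Igfbp5 was not tested.

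Igfbp7 (ENSMUSG00000036256.7, chr5:77349240-77408045) had the largest diet difference of the 10 genes in both genotypes. Its levels were 106, 97.3, 76.8, 71.1 and 68.8 FPKM in NDWT and 571, 485, 387, 395 and 330.0 in HFWT. They were 108, 96.0, 109, 81.7 and 89.2 in NDKO and 406, 352, 533, 405 and 491 in HFKO. The lowest CDAHFD liver, at 330.0 FPKM, was above the highest control chow liver, at 109. The log2FC was 2.36 (SE 0.15, FDR 8.13e-11) in WT and 2.17 (SE 0.15, FDR 3.29e-10) in TSP-1 null livers, or 1.83 and 1.67 relative to the median of all tested genes, with ratios of group means of 5.16 and 4.52. Stellate cell and fibroblast markers moved with it. All 10 were called higher in both genotypes, and their sum ran from 55.0 to 68.5 FPKM in NDWT, 276 to 537 in HFWT, 71.4 to 77.2 in NDKO and 291 to 385 in HFKO. Endothelial markers, for a cell type that also makes Igfbp7, were called higher for 2 of 10 in WT and 3 of 10 in TSP-1 null livers, and summed to 80.9 to 86.1 FPKM in NDWT, 72.5 to 108 in HFWT, 65.3 to 81.7 in NDKO and 77.5 to 117 in HFKO. Over all tested genes 44.1% in WT and 41.9% in TSP-1 null livers were called higher, so the endothelial counts are below that share. The endothelial median log2FC relative to all tested genes was −0.51 in WT and −0.18 in TSP-1 null livers. The part of either cell type in the Igfbp7 difference was not tested. Igfbp7 overlaps Polr2b on the other strand, so reads of the pair may be mixed if strand was not used.

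**Figure D2:**
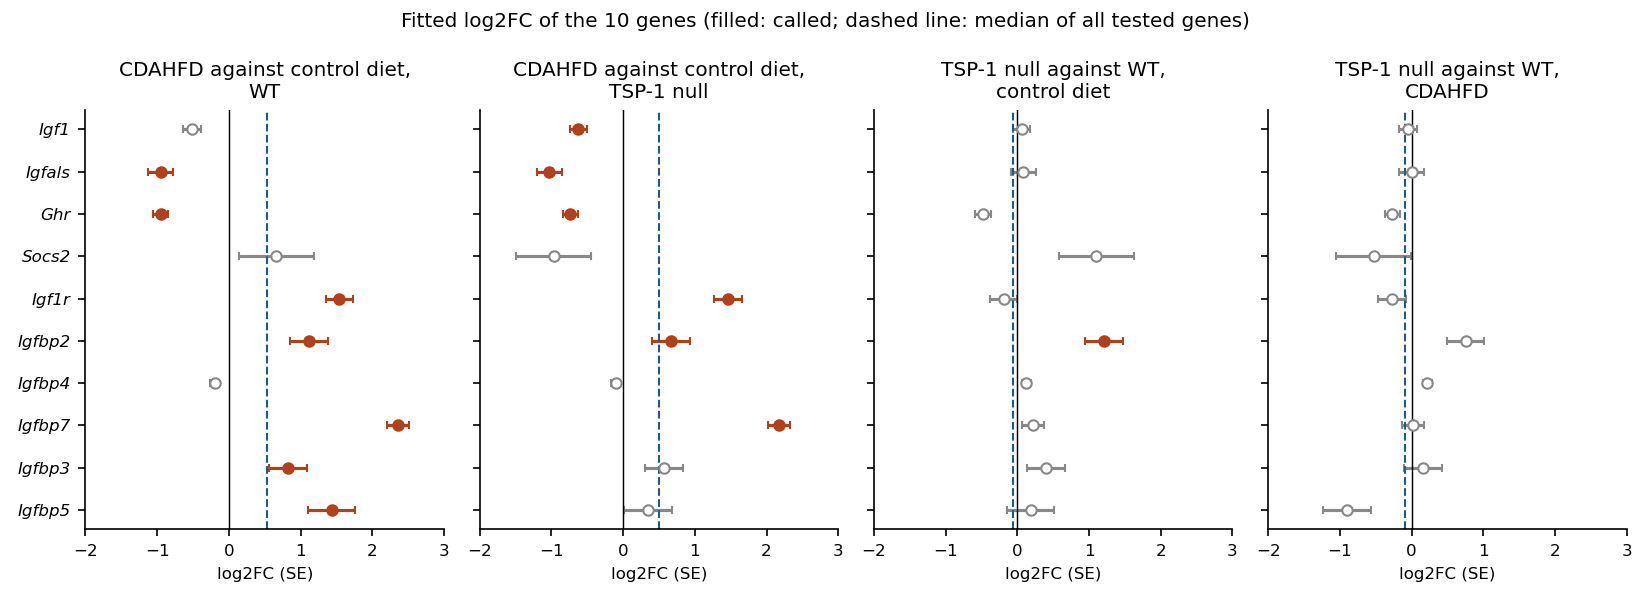
Fitted log2FC (points) with SE (bars) of the 10 genes in 4 comparisons, filled where called; the solid line is 0 and the dashed line the median of all tested genes. In both diet panels Igf1, Igfals and Ghr lie left of 0 and Igfbp7 and Igf1r right of the dashed line, and in the genotype panels only Igfbp2 on the control diet is filled. Igf1r passed the filter through CDAHFD libraries, so its filled diet points are partly fixed by that filter.

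Igfbp2 (ENSMUSG00000039323.12, chr1:72824503-72852474), the most abundant member by mean, was called higher on CDAHFD in both genotypes and higher in NDKO than in NDWT. Levels were 459, 460.3, 254, 532 and 399.8 FPKM in NDWT and 679, 1106, 763, 1097 and 872 in HFWT. They were 1284, 826, 1427, 1169 and 419 in NDKO and 1453, 1288, 1773, 1635 and 1375 in HFKO. The WT diet groups did not overlap. In the knockouts NDKO mouse 5, at 419 FPKM, was well below its group, and NDKO mouse 3, at 1427 FPKM, was above some HFKO livers. The diet log2FC was 1.12 (SE 0.26, FDR 8.40e-04) in WT and 0.67 (SE 0.26, FDR 0.0298) in TSP-1 null livers, or 0.58 and 0.17 relative to the median of all tested genes. Neither diet call held under the median of ratios (0.55 and 0.13). The call in TSP-1 null livers was also lost without NDKO mouse 2 (0.62), NDKO mouse 5 (0.37), HFKO mouse 3 (0.60) or HFKO mouse 4 (0.63).

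Igfbp2 was the only member called between genotypes, on control chow, where it was higher in NDKO (log2FC 1.20, SE 0.26, FDR 0.00556). Over all tested genes 1.74% were called higher and 3.03% lower in that comparison. NDKO mouse 5 lay inside the NDWT range and the other 4 NDKO livers lay above it. On CDAHFD all 5 HFKO livers, from 1288 to 1773 FPKM, lay above all 5 HFWT livers, from 679 to 1106, but the log2FC of 0.75 (SE 0.26, FDR 0.154) did not pass the FDR. The genotype difference was not shown to differ between diets (interaction −0.45, SE 0.37, FDR 0.619).

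No other member was called between genotypes, with 9 of 10 not called on control chow and 10 of 10 on CDAHFD. On CDAHFD limma with Benjamini-Hochberg adjustment gave 0 calls, limma-voom on recovered fragments also gave 0, and 4 members had an unadjusted p under 0.05. Over all tested genes 0.165% were called higher and 0.33% lower there. Igfbp2 and Igfbp4 were the 2 members whose HFKO livers all lay above all HFWT livers, against 0.847% of all tested genes apart upward and 4.13% downward. No member's groups were apart on control chow, where 2.33% of all tested genes were apart upward and 6.69% downward.

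Igfbp4 (ENSMUSG00000017493.6, chr11:99041244-99054392) differed by less than 1.5-fold by diet when libraries were not rescaled. Its levels ran 369 to 432 FPKM in NDWT, 323 to 372 in HFWT, 396 to 464 in NDKO and 384 to 414 in HFKO. The diet log2FC was −0.20 (SE 0.062, FDR 0.00789) in WT and −0.10 (SE 0.062, FDR 0.143) in TSP-1 null livers, and −0.73 and −0.60 relative to the median of all tested genes. With median of ratios scaling it was called lower in both (−0.76 and −0.64), and with quantile scaling the TSP-1 null value turned to 0.069. The HFKO against HFWT log2FC was 0.22 (SE 0.062, FDR 0.0897).

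Igfbp3 (ENSMUSG00000020427.5, chr11:7206086-7213923) and Igfbp5 (ENSMUSG00000026185.8, chr1:72857932-72874884), which encode the binders of the ternary serum complex, were present at low levels. Igfbp3 ran 2.72 to 6.47 FPKM in NDWT, 3.83 to 11.9 in HFWT, 4.30 to 7.02 in NDKO and 6.50 to 10.8 in HFKO, so both pairs of diet groups overlapped. It was called higher on CDAHFD in WT (log2FC 0.82, SE 0.27, FDR 0.00932) but not in TSP-1 null livers (0.57, SE 0.27, FDR 0.0610), with 0.29 and 0.073 relative to the median of all tested genes, and the WT call was lost with median of ratios (0.27) and quantile (0.22) scaling. With 1 mouse left out the TSP-1 null log2FC of Igfbp3 ran from 0.47 to 0.67. The Igfbp3 interaction, −0.25 (SE 0.38, FDR 0.817), did not pass, so its diet difference was not shown to differ by genotype label. Igfbp5 levels were 1.06, 1.99, 0.571, 1.38 and 0.868 FPKM in NDWT and 5.45, 2.02, 3.55, 1.88 and 3.84 in HFWT. They were 0.734, 1.89, 1.26, 0.958 and 1.74 in NDKO and 1.63, 1.63, 1.05, 2.67 and 1.44 in HFKO. HFWT mice 1, 3 and 5 stood above every other liver of the study. The diet log2FC was 1.43 (SE 0.33, FDR 6.60e-04) in WT and 0.35 (SE 0.33, FDR 0.353) in TSP-1 null livers, or 0.90 and −0.15 relative to that median. In TSP-1 null livers it turned to −0.15 and −0.48 with median of ratios and quantile scaling, and quantile scaling ended the WT call (0.57). The interaction, −1.09 (SE 0.47, FDR 0.269), did not pass, so the diet difference was not shown to differ by genotype label. Igfbp5 lies 5457 bases from Igfbp2 on chromosome 1.

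The 7 IGF binding protein genes together, with Igfbp1 and Igfbp6 added to the members, summed to 954 ± 142 FPKM in NDWT, 1756 ± 203 in HFWT, 1751 ± 487 in NDKO and 2446 ± 276 in HFKO (SD, n = 5). Igfbp2 made up 43.6% ± 5.99 of that sum in NDWT, 51.2% ± 7.05 in HFWT, 56.5% ± 9.59 in NDKO and 61.5% ± 2.64 in HFKO. Igfbp4 took a smaller share on CDAHFD, with 42.2% ± 5.15 in NDWT and 19.9% ± 1.89 in HFWT. The share of Igfbp7 was 8.86% ± 1.49 in NDWT and 24.8% ± 5.19 in HFWT, and its ranges, 6.79% to 10.4% and 20.4% to 33.3%, did not overlap. These shares are descriptions of FPKM and carry no test.

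**Figure D3:**
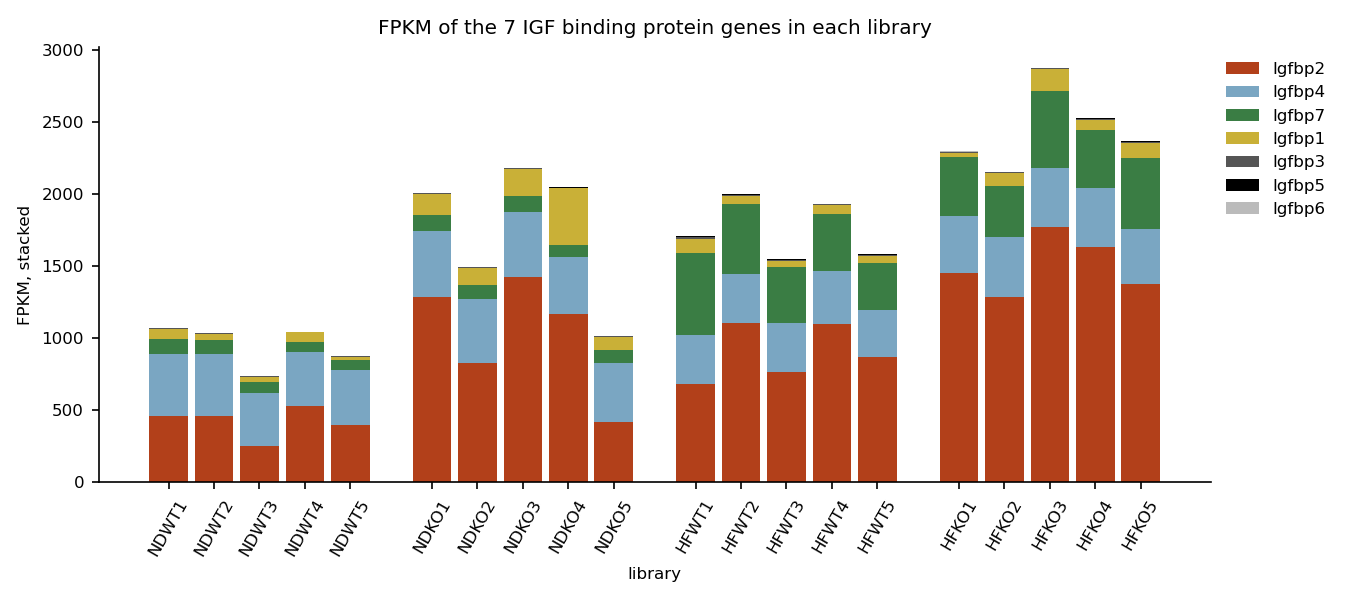
FPKM of 7 IGF binding protein genes stacked for each of the 20 livers (linear axis from 0), in the order NDWT, NDKO, HFWT, HFKO, n = 5 each. The stack is lowest in NDWT (740.2 to 1070.2 FPKM) and highest in HFKO (2157 to 2878), Igfbp2 is the largest segment in every liver but NDWT mouse 3, and the green Igfbp7 segment is wide on CDAHFD.

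Socs2 (ENSMUSG00000020027.12, chr10:95385362-95417180), the feedback inhibitor that growth hormone induces through STAT5, had the widest relative spread of the 10 genes in NDWT, HFWT and HFKO. Levels were 5.49, 7.93, 0.937, 2.03 and 0.920 FPKM in NDWT and 2.15, 7.27, 2.34, 6.40 and 3.67 in HFWT. They were 4.84, 5.89, 7.13, 8.23 and 2.48 in NDKO and 2.45, 1.82, 2.32, 5.37 and 2.39 in HFKO. Every pair of groups overlapped, and the coefficient of variation was 90.2% in NDWT and 53.8% in HFWT, with 49.5% for HFKO, against 6.66% for Igf1 in NDWT. In NDKO it was 38.8%, just under the 39.5% of Igfbp2. The diet log2FC was 0.66 (SE 0.52, FDR 0.263) in WT and −0.97 (SE 0.52, FDR 0.105) in TSP-1 null livers, or 0.13 and −1.46 relative to the median of all tested genes. The TSP-1 null difference was called with median of ratios (−1.49) and quantile (−1.62) scaling, when only those 2 groups entered the fit (−0.97) and without NDKO mouse 5 (−1.23). The genotype log2FC was 1.10 (SE 0.52, FDR 0.181) on control chow, called without NDWT mouse 2 (1.52), and −0.52 (SE 0.52, FDR 0.629) on CDAHFD. The interaction was −1.63 (SE 0.74, FDR 0.301) with an unadjusted p of 0.0405. In the interaction over all 10 members limma gave 0 calls, limma-voom 0, and 2 unadjusted p under 0.05, where 0.337% of all tested genes were called higher and 0.31% lower.

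How members varied together among mice of 1 group was examined for the 45 pairs of members, after each group's mean was removed. With Benjamini-Hochberg adjustment over the pairs no correlation passed, the lowest adjusted value being 0.0594 for Pearson r and 0.0654 for Spearman rho. The 6 pairs with an unadjusted permutation p for r under 0.01 are given here as values over the 20 libraries. Igfbp2 and Socs2 gave r = 0.63 (permutation p = 0.00151) and rho = 0.58 (permutation p = 0.00919), with r = 0.50 without the 2 mice farthest from the median of Igfbp2, 0.58 within control chow and 0.84 within CDAHFD. Igfals and Socs2 gave r = 0.75 (permutation p = 0.00303) and rho = 0.71 (permutation p = 0.00581), with r = 0.68 without the 2 mice farthest from the median of Igfals, 0.82 within control chow and 0.70 within CDAHFD. In NDWT the mice with high Socs2, mice 1 and 2, were also those with high Igfals. Igfals and Igfbp4 gave r = 0.68 (permutation p = 0.00396) and rho = 0.67 (permutation p = 0.00372), with r = 0.68 without the 2 mice farthest from the median of Igfals, 0.81 within control chow and 0.53 within CDAHFD. Igf1 and Igfbp7 gave r = −0.63 (permutation p = 0.00530) and rho = −0.60 (permutation p = 0.0104), with r = −0.47 without the 2 mice farthest from the median of Igf1, −0.44 within control chow and −0.74 within CDAHFD. Ghr and Igfbp5 gave r = 0.63 (permutation p = 0.00717) and rho = 0.66 (permutation p = 0.00513), with r = 0.59 without the 2 mice farthest from the median of Ghr, 0.55 within control chow and 0.72 within CDAHFD. Ghr and Igfbp2 gave r = −0.65 (permutation p = 0.00892) and rho = −0.69 (permutation p = 0.00270), with r = −0.45 without the 2 mice farthest from the median of Ghr, −0.70 within control chow and −0.71 within CDAHFD.

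**Figure D4:**
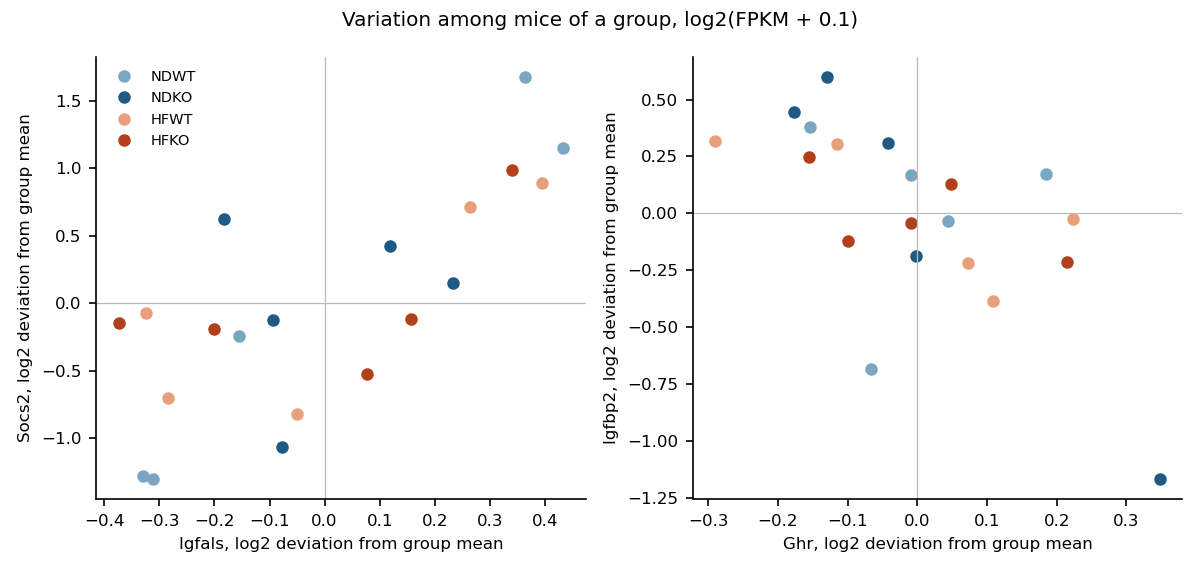
Each point is 1 of 20 livers, coloured by group; axes give log2(FPKM + 0.1) minus the mean of its group, with Igfals across and Socs2 up (left) and Ghr across and Igfbp2 up (right). Points run upward on the left (r = 0.75) and downward on the right (r = −0.65), neither past adjustment over the 45 pairs, and on the right 1 NDKO mouse lies far from the others.

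The tested genes whose within-group pattern was most like that of Igf1 were Cyp4a31 (r = 0.86), Gm10156 (0.84) and Tmed5 (0.83), over 20 libraries. For Igfals they were H2-Q10 (0.91), Btd (0.86) and Pop5 (0.85), and for Igfbp7 they were Scarf2 (0.96), Mtch1 (0.94) and Adamtsl2 (0.92). These were the highest of 14524 genes, and libraries share depth and composition, so the values are descriptions.

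Upstream of the members, 5 of 11 genes of growth hormone receptor signal were called higher on CDAHFD in each genotype and none lower, near the 44.1% and 41.9% of all tested genes called higher. Jak2, the kinase bound to the receptor, ran 3.16 to 3.92 FPKM in NDWT and 6.34 to 7.47 in HFWT, with a log2FC of 0.94 (SE 0.091, FDR 2.11e-08) in WT and 1.22 (SE 0.091, FDR 7.61e-10) in TSP-1 null livers, or 0.41 and 0.72 relative to the median of all tested genes. Stat5a was called higher in both (log2FC 0.65 and 0.90), as were Socs3 (0.84 and 0.85), Socs1 (1.04 and 1.40) and Ptpn6 (1.07 and 1.05), 3 genes whose products damp cytokine receptors. Relative to that median these were 0.12 and 0.40 for Stat5a, 0.31 and 0.35 for Socs3, 0.51 and 0.91 for Socs1 and 0.54 and 0.55 for Ptpn6. Stat5b, the main STAT5 of liver, was within 1.5-fold, at 0.37 (SE 0.089, FDR 0.00104) and 0.33 (SE 0.089, FDR 0.00277), or −0.16 and −0.17 relative to it. Cish, another STAT5-induced inhibitor, was not called in either, with a log2FC of 1.23 (SE 0.67, FDR 0.104) and −0.19 (SE 0.67, FDR 0.806). Its NDWT values of 1.01, 7.64, 0.324, 0.227 and 0.133 FPKM were highest in mouse 2, as for Socs2. The list's median log2FC was 0.65 in WT and 0.53 in TSP-1 null livers, close to the 0.53 and 0.50 of all tested genes.

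Of the other IGF ligands, receptors and binders, 4 of 6 passed the filter. Igf2, the fetal ligand, did not, with 0.0880 to 0.126 FPKM in NDWT and 0.131 to 0.312 in HFWT, and Insrr did not either. Igf2r, which clears IGF-2, was higher on CDAHFD, with a log2FC of 0.89 (SE 0.10, FDR 1.93e-07) and 1.18 (SE 0.10, FDR 5.66e-09), or 0.36 and 0.68 relative to the median of all tested genes. The insulin receptor gene Insr had values of −0.44 (SE 0.075, FDR 3.38e-05) and −0.19 (SE 0.075, FDR 0.0268), short of 1.5-fold, and of −0.97 and −0.69 relative to that median. Igfbp1, which is made by hepatocytes when insulin is low and lies 3539 bases from Igfbp3 on chromosome 11, was higher in NDKO than in NDWT. Its levels were 67.2, 42.0, 33.0, 63.6 and 20.4 FPKM in NDWT and 148, 116, 192, 395 and 90.3 in NDKO. Every NDKO liver was above every NDWT liver (log2FC 1.98, SE 0.43, FDR 0.00485). The log2FC was 0.49 (SE 0.43, FDR 0.577) between genotypes on CDAHFD, where the groups overlapped. The diet log2FC was 0.43 (SE 0.43, FDR 0.366) in WT and −1.06 (SE 0.43, FDR 0.0315) in TSP-1 null livers, the second called lower although HFKO livers, at 30.3 to 148 FPKM, overlapped with NDKO livers. Relative to the median of all tested genes these were −0.099 and −1.56, and the interaction was −1.49 (SE 0.60, FDR 0.238). Igfbp6 was higher on CDAHFD in WT (log2FC 1.52, SE 0.36, FDR 7.77e-04) and not called in TSP-1 null livers (0.47, SE 0.36, FDR 0.244), with 0.99 and −0.028 relative to that median. None of the 4 tested genes of this list was called in the interaction, so the Igfbp6 diet difference was not shown to differ by genotype label. Of 5 IGFBP protease and inhibitor genes 1 passed the filter, Htra1, which was higher on CDAHFD in both genotypes, with a log2FC of 2.78 (SE 0.18, FDR 6.11e-11) and 2.42 (SE 0.18, FDR 5.15e-10), or 2.25 and 1.92 relative to the median of all tested genes.

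Of 15 genes of insulin and IGF receptor signal, 4 were called higher on CDAHFD in WT and 7 in TSP-1 null livers, with 0 and 1 lower. Over all tested genes 44.1% and 41.9% were called higher, so the share in WT is below the background and that in TSP-1 null livers near it. The adaptor Grb10, counted among those called higher in both, passed the filter only through CDAHFD libraries and so had to differ. It is given as levels, with no test. Grb10 ran 0.301 to 0.455 FPKM in NDWT and 1.06 to 2.20 in HFWT, and 0.294 to 0.346 in NDKO and 1.10 to 1.72 in HFKO. The adaptors Grb2 (log2FC 0.76 and 0.75) and Shc1 (0.69 and 0.63) and the kinase Akt1 (0.93 and 0.86) were higher in both. Relative to the median of all tested genes they were 0.23 and 0.25, 0.16 and 0.14, and 0.40 and 0.36, in that order. None was called between genotypes on either diet. The list's median was 0.19 in WT, below the 0.53 of all tested genes, and 0.46 in TSP-1 null livers.

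The sex-biased targets of growth hormone included differences larger than that of any member. Of 15 male-biased genes 10 were called lower on CDAHFD in WT and 13 in TSP-1 null livers, and none higher, with medians of −2.07 and −2.62. Over all tested genes 4.62% and 4% were called lower. Cyp7b1, a male-biased oxysterol hydroxylase, fell, with a log2FC of −2.76 (SE 0.20, FDR 4.08e-10) and −3.13 (SE 0.20, FDR 1.00e-10), or −3.29 and −3.63 relative to the median of all tested genes. So did Cyp2d9 (−2.02 and −2.62) and Cyp4a12b (−2.17 and −2.74). Moxd1, counted among those called lower in both, passed the filter only through control chow libraries and so had to differ. It is given as levels, with no test. Moxd1 ran 1.88 to 22.3 FPKM in NDWT and 0.0150 to 0.116 in HFWT, and 7.54 to 44.2 in NDKO and 0 to 0.0570 in HFKO. With at most 7 fragments in a CDAHFD library its fitted value also depends on the pseudocount. Between genotypes 3 of the 15 were called lower in NDKO and 2 in HFKO, among them Cyp4a12b in both (log2FC −0.68 and −1.25), against 3.03% and 0.33% of all tested genes. Genes of the Cyp4a12, Cyp2d, Cyp2a, Cyp2b and Mup families have near-identical copies, and how reads were divided among them is uncertain.

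Only 7 of 15 female-biased genes passed the filter, and they did not move one way. On CDAHFD 3 were called higher and 2 lower in WT, and 3 higher and 3 lower in TSP-1 null livers. For the WT comparison 44.1% of all tested genes were called higher and 4.62% lower. For TSP-1 null livers these background shares were 41.9% and 4%. The share of the 7 genes called higher is near the background, and the share called lower is above it. Among the genes called higher in both genotypes were Cyp2a4 and Cyp2b9, which passed the filter only through CDAHFD libraries and so had to differ. Both genes are given as levels, with no test, and the counts called higher are partly fixed by the filter. Cyp2a4 ran 0 to 0.1 FPKM in NDWT and 2.21 to 10.1 in HFWT, and 0.0310 to 0.259 in NDKO and 4.88 to 49.8 in HFKO. Cyp2b9 ran 0.0310 to 0.329 FPKM in NDWT and 0.862 to 16.7 in HFWT, and 0.132 to 0.233 in NDKO and 6.91 to 23.0 in HFKO. On control chow neither had more than 14 fragments in a library. Cyp17a1, a steroid hydroxylase, fell in both (log2FC −2.60 and −2.71). Trim24 was higher in HFWT than NDWT (1.27) and in NDKO than NDWT (0.92). Its mean was 4.40 FPKM in NDKO, 5.65 in HFWT and 5.64 in HFKO, and none of the 7 genes was called between genotypes on CDAHFD. Cyp2b13, Cyp3a41a, Cyp3a16 and Sult2a1 were listed at 0 in every NDWT library. Cux2, a female-biased repressor of male genes, was chosen after its values were seen and is described with no test. It ran 0.0700 to 0.157 FPKM in NDWT and 0.447 to 2.22 in NDKO, which did not overlap, and 0.166 to 0.512 in HFWT and 0.207 to 1.39 in HFKO, which did.

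**Figure D5:**
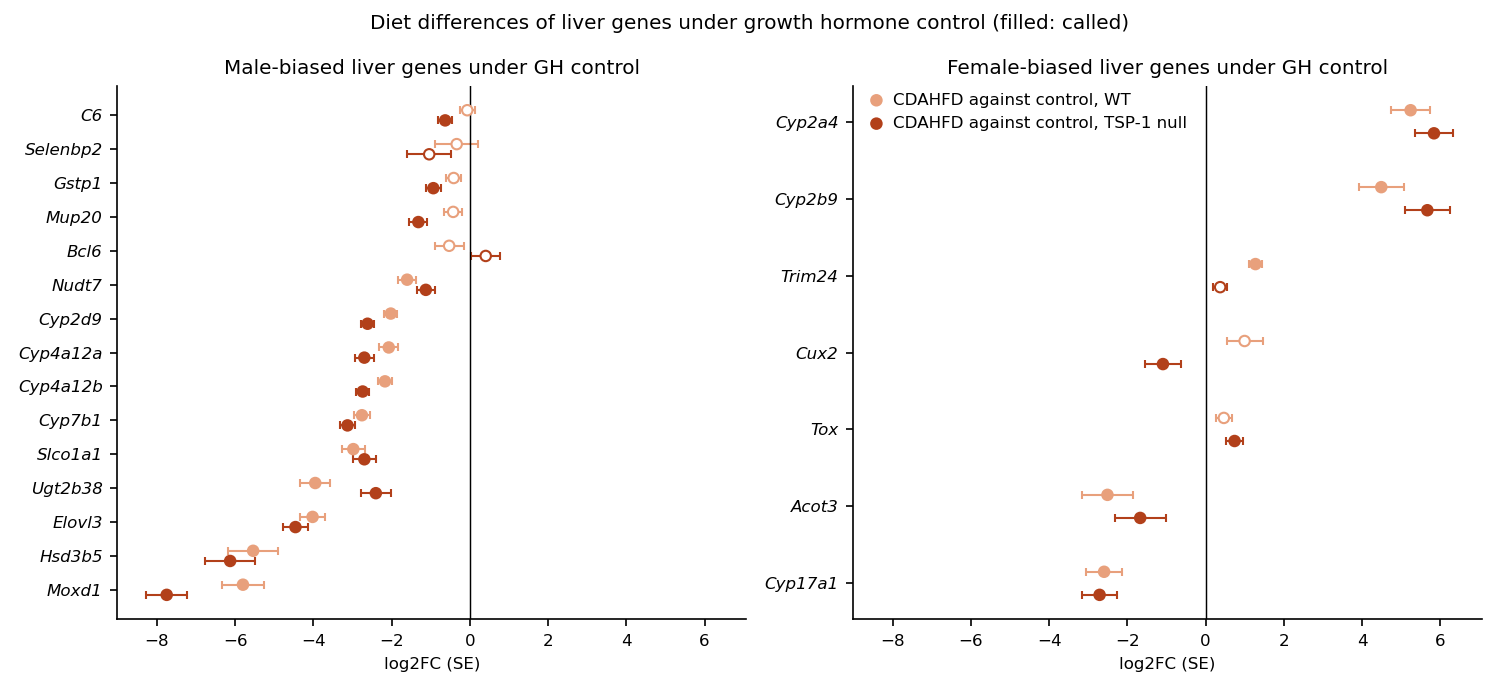
Fitted log2FC with SE of male-biased (left, 15 genes) and female-biased (right, 7 tested genes) liver genes under growth hormone control, CDAHFD against control chow, in WT (light) and TSP-1 null (dark) livers, filled where called. On the left 10 and 13 genes are called, all left of 0, and on the right genes lie on both sides. Moxd1 (left) passed the filter only through control chow libraries, and Cyp2a4 and Cyp2b9 (right) only through CDAHFD libraries. These genes had to differ, so their filled points are not test results.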

How the data were processed

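Poly(A) RNA of 20 mouse livers in 4 groups of 5 was sequenced as paired ends after a directional library kit. The authors processed reads with QuickRNASeq and deposited 1 table of FPKM for 38924 genes, with no scaling between libraries; the submitters' processing notes name STAR 2.5.2 and featureCounts of Subread 1.5.1. Those notes name GRCh38, but the gene identifiers and coordinates are mouse GRCm38, of which 37607 identifiers were found in GENCODE M21 and 99.8% overlapped the gene there. The strand setting of the counting is not given in the sources used here.

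FPKM times gene length gave whole fragments for 99.99% of values in the lowest library (tolerance 0.02 fragments beyond rounding), and totals of 15641545 to 23276322 fragments. A floor of 3 fragments on a 1 kb gene corresponded to 0.129 to 0.192 FPKM, for counting error only. No 2 libraries of a group agreed within sampling noise (lowest chi-square per degree of freedom 13.0 over 40 pairs). The sources do not say how libraries were batched.

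limma 3.58.1 (R 4.3.3; lmFit, contrasts.fit, eBayes with trend) was fitted to log2(FPKM + 0.1), which understates changes of low genes, for 14524 genes above 0.5 FPKM in at least 5 libraries. All 20 libraries entered 1 fit with a mean per group, and 5 contrasts were tested two-sided with Benjamini-Hochberg adjustment over all tested genes. The minimum of 0.5, the FDR of 0.05 and the 1.5-fold threshold follow the study's methods, and the requirement of 5 libraries was set here. The fit was tried on simulated data with as many genes raised as lowered and no shift of the median. That run does not check the diet calls under the median shift seen here. Correlations used deviations from group means, with 100000 permutations of libraries within groups and adjustment over 45 pairs; the permutation test was added to the fixed description. Each mouse is 1 sample. The limma p-values set differences of group means against the spread between mice. The permutation p-values are for correlations of deviations within groups.

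The 10 genes and the lists of pathway and marker genes were chosen with earlier results of these data known. All 10 members are named. Of the pathway lists Igf2, Igfbp1, Igfbp6, Igf2r, Insr, Jak2, Stat5a, Stat5b, Cish and Socs3 are always named, and otherwise at most the 4 called genes with the lowest FDR per list. For Igf1, Igfals and Igfbp7 the 3 non-member genes with the highest within-group r are named, and marker genes appear as counts and sums. Promoter sequences are from RefSeq on GRCm38.p6. Alternatives were other pseudocounts, filters, scalings, thresholds and fits, limma-voom on recovered fragments, a replicate block, and leaving out each mouse.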

Additional observations from a re-analysis of the deposited data

Results flagged for a closer look

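In 40 sets of 5 livers (10 genes in 4 groups), 3 held a liver far from the other 4 by Dixon's ratio of its gap to the whole range, and chance gives about 1 in 20. Igf1 in NDWT was highest in mouse 4, at 63.9 FPKM. Socs2 in HFKO was highest in mouse 4, at 5.37 FPKM. Igf1r in HFKO was highest in mouse 5, at 1.79 FPKM.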

How the results depend on the processing

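Of 540 recomputed values of single members under settings other than leaving out a mouse, 515 kept their direction and side of the threshold, 9 lost a call, 10 gained one and 6 changed sign; of 1000 values with 1 mouse left out, 970 kept both, 5 lost a call, 4 gained one and 21 changed sign. None of the members that changed sign was called there, and the cause was not tested. Sign changes with median of ratios scaling were Igf1 between genotypes on CDAHFD (0.051) and Igfbp5 by diet in TSP-1 null livers (−0.15). Those with quantile scaling were Igfbp4 (0.069) and Igfbp5 (−0.48) by diet in TSP-1 null livers, Socs2 by diet in WT livers (−0.077) and the interaction of Igf1r (0.027). With 1 mouse left out, log2FC ranges that crossed 0 were, between genotypes on control chow, −0.014 to 0.12 for Igf1 and −0.020 to 0.39 for Igfbp5; on CDAHFD, −0.18 to 0.021 for Igf1, −0.083 to 0.10 for Igfals, −0.091 to 0.31 for Igfbp3 and −0.067 to 0.13 for Igfbp7; and for the interaction, −0.19 to 0.018 for Igfals and −0.21 to 0.049 for Igf1r. The number of members called between genotypes on control chow was 1, but 2 with the FDR alone, which adds Ghr, and 1 to 2 with 1 mouse left out, the 2 being without NDWT mouse 2, which adds Socs2. Members called by diet ran 5 to 9 in WT and 5 to 7 in TSP-1 null livers over settings other than leaving out a mouse.

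Replicate numbers did not pair the mice: over 30 pairs of same-numbered libraries the correlation of deviations ran from −0.133 to 0.0812 with none over 0.1, and 8 of 30 correlated best with their own number. With a replicate block 7 and 6 members were called by diet in WT and TSP-1 null livers, 1 and 0 between genotypes on control chow and CDAHFD, and 0 in the interaction, as without it. No value exists for the interaction when only the groups compared are fitted. Over all genes, calls on the WT diet comparison were 6412 higher and 671 lower, against 3299 and 2242 with median of ratios and 2738 and 2359 with quantile scaling. Calls between genotypes on control chow were 253 higher and 440 lower, against 348 and 329 with median of ratios scaling. At low levels, as for Igf1r and Igfbp5 on control chow, few fragments limit precision, with 25 to 45 for Igf1r and 61 to 258 for Igfbp5.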
